A study of Mus musculus with 8 samples.

Results

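Variant PRC1.6 is a Polycomb repressive complex that keeps germline genes silent in cells that do not yet use them. Its 6 characteristic subunits and DNA-binding partners, Pcgf6, E2f6, Mga, Max, L3mbtl2 and Tfdp1, were taken by symbol from the gene table and made up 6 of the 21950 genes counted. They were compared between 4 pools of day 6 primordial germ cell-like cells (d6PGCLCs) and 4 pools of female primordial germ cells (PGCs) from E12.5 gonads, E giving embryonic age in days. All 6 had reads in every library, with a mean of 138 counts per library for E2f6 and of 417 to 3061 for the others.

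The d6PGCLCs came from 1 female induced pluripotent stem cell line (BVSC-iPSC), derived from adult tail tip fibroblasts, that carries Blimp1-Venus and Stella-ECFP reporters. Cells positive for both reporters were sorted on day 8 of the culture, after 6 days of induction from epiblast-like cells with BMP4, SCF, LIF and EGF. The E12.5 PGCs came from gonads of inbred C57BL/6J fetuses and were sorted as SSEA1+ integrin β3+ cells. Each pool was an independent experiment, so tests measure the spread between pools, while stage, culture, line, genetic background and sorting scheme cannot be told apart.

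In PRC1.6 the RING finger protein PCGF6 pairs with the ubiquitin ligase RNF2 or RING1, which places ubiquitin on a core histone. The complex reaches DNA through MGA, a very large protein that binds E-box sequences as a dimer with MAX, and through E2F6, an E2F factor without an activation domain that dimerises with the DP proteins TFDP1 and TFDP2. L3MBTL2 binds chromatin through its MBT repeats. Loss of this complex in pluripotent cells is known to switch on meiotic and germ granule genes.

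Library depth was 8054596 to 12024841 counts in d6PGCLCs and 7991437 to 11166023 counts in E12.5 PGCs. Levels are given as CPM, counts scaled to a common library size by the trimmed mean of M-values. The 10 germ cell markers summed to 5125 to 5687 CPM in d6PGCLCs and to 3289 to 3680 CPM in E12.5 PGCs. Pou5f1, with means of 1632 and 980 CPM, was the largest part. In the edgeR test given below, 7 of the 10 were higher in d6PGCLCs, beside 28.3% of genes averaging at least 100 counts. Dnd1 was lower (280 against 422 CPM), and Nanos3 and Kit did not pass. The list leaves out Dazl and Ddx4, described below. The 10 gonadal somatic markers summed to 0.830 to 24.2 and to 2.89 to 11.5 CPM, with Amhr2 at no more than 3 counts in any library. By edgeR's quasi-likelihood test over all genes (adjusted p of at most 0.05), 4 of them (Wt1, Gata4, Fst and Pdgfra) were lower in d6PGCLCs. Col1a1 was higher, and the 24.2 CPM was d6PGCLC replicate 4, where Col1a1 had 11.8 CPM. The 5 blood and endothelial markers reached 19.9 to 34.5 and 14.97 to 28.8 CPM, with Ptprc at no more than 3 counts. Of these, Cdh5 was higher in d6PGCLCs (means of 11.0 against 4.18 CPM). Hba-a2 was lower, with 48 counts in E12.5 PGC replicate 2 and 0 in d6PGCLCs. The 5 epiblast and germ layer markers reached 0.916 to 3.32 and 5.99 to 11.2 CPM, with Hoxb1 at 0 throughout and the other 4 lower in d6PGCLCs. Of the E12.5 PGC pools, replicate 2 stood apart with 753 CPM over 8 dissociation response genes, against 154 to 267 CPM in the other 3 pools and 151 to 172 CPM in d6PGCLCs. By the same edgeR test, 6 of these 8 genes were lower in d6PGCLCs and 1, Junb, was higher. Replicate 4 of the E12.5 PGCs held 97 counts over 5 Y-linked genes, which had 0 counts in the other libraries. The part of these in the results below was not tested, and the members are also given without both pools.

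Of the 6 members, Max and Pcgf6 were higher in d6PGCLCs, Tfdp1 was lower, and E2f6, Mga and L3mbtl2 did not pass the test. No member reached a 2-fold difference, whereas 14.7% of all genes and 13.0% of those averaging at least 100 counts passed with one. Coordinates of the members are those of RefSeq (GRCm38.p6). By edgeR's quasi-likelihood test over all genes (adjusted p of at most 0.05), 3 of 6 members passed, beside 31.5% of all genes and 54.1% of the 8128 genes averaging at least 100 counts. Genes higher in d6PGCLCs made up 16.1% of all genes and 28.3% of the latter, and genes lower in them 15.4% and 25.8%. With library size alone, the upper quartile or a length-dependent offset in place of the main scaling, the split was 1 higher and 2 lower, since Pcgf6 no longer passed and Mga did. The groups did not overlap for 3 of the 6 members, beside 30.2% of all genes and 51.8% of those averaging at least 100 counts. The same split of 1 higher and 2 lower was counted without E12.5 PGC replicates 2 and 4. In that fit the log2 fold change was 0.56 for Max, 0.28 for Pcgf6, 0.13 for L3mbtl2, -0.09 for E2f6, -0.37 for Tfdp1 and -0.63 for Mga, of which Max, Tfdp1 and Mga passed (edgeR adjusted p = 0.000454, 0.0121 and 0.0114).

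**Figure D1:**
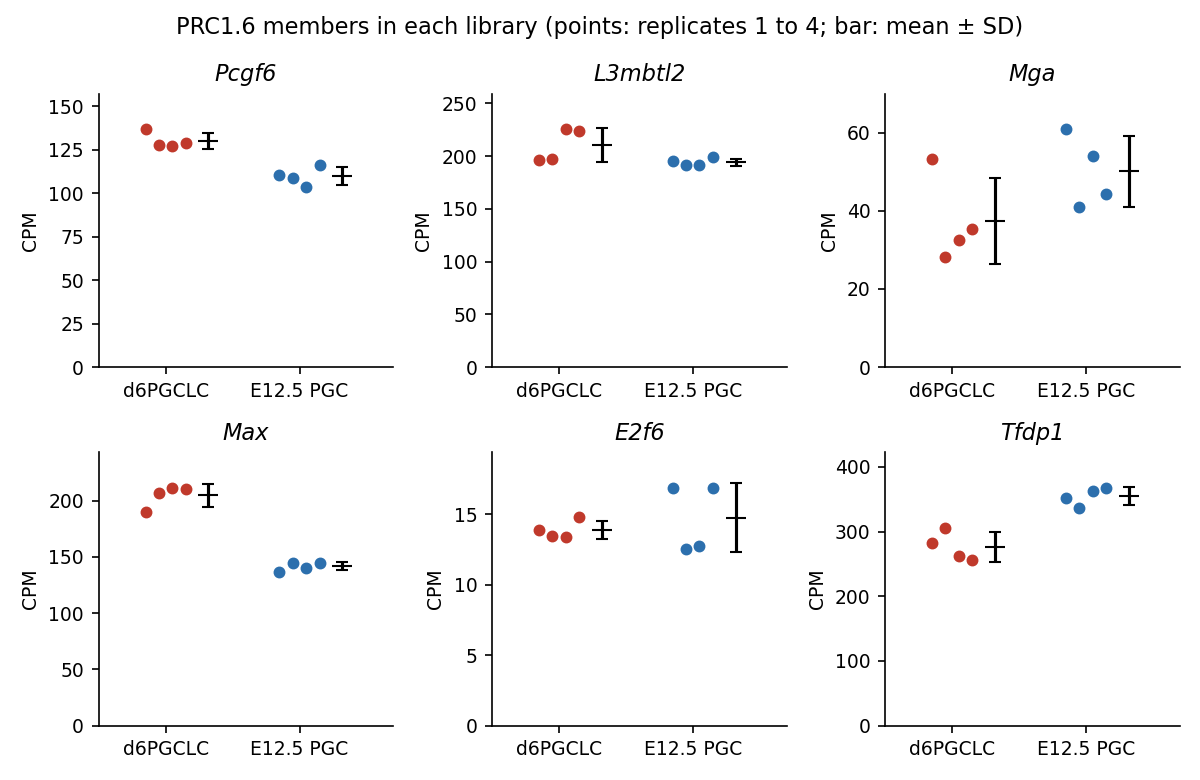
TMM-scaled CPM (y axis, from 0) of each PRC1.6 member in the 4 d6PGCLC and 4 E12.5 PGC libraries (x axis); points are libraries, replicates 1 to 4 from left to right, and bars show the mean ± SD. The groups are separate for Pcgf6, Max and Tfdp1 and overlap for L3mbtl2, Mga and E2f6.

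Max (Entrez 17187, chr12:76937269-76962323), the dimerisation partner shared by MGA, MYC and MXD proteins, showed the most marked difference of the members in the main fit. Its level was 190.2, 207, 212 and 210.4 CPM in d6PGCLC replicates 1 to 4 and 137, 144, 140.4 and 145 CPM in E12.5 PGC replicates 1 to 4. Each d6PGCLC library lay above each E12.5 PGC library, and the lowest of the former was replicate 1. The means were 205 ± 9.89 and 142 ± 3.65 CPM (SD, n = 4 each), a 1.45-fold difference with a 95% interval of 1.28 to 1.63 (log2 fold change 0.53, SE 0.08, edgeR adjusted p = 3.21e-05). A two-sided exact permutation test of the 4 against 4 libraries gave p = 0.0286, the smallest it can give. Max passed under each of the 19 alternative settings tried, with log2 fold changes of 0.41 to 0.56. In some of these Mga differed more than Max, as with the length-dependent offset (-0.51 against 0.41), where Tfdp1 (-0.44) did too. The same held without d6PGCLC replicate 1 (-0.64 against 0.56) and without E12.5 PGC replicates 2 and 4 (-0.63 against 0.56).

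Pcgf6 (Entrez 71041, chr19:47033617-47050939), the subunit that defines the complex, was slightly higher in d6PGCLCs. It measured 137, 128, 127 and 129 CPM in the d6PGCLC libraries and 110.4, 109, 104 and 116 CPM in the E12.5 PGC libraries. The groups did not overlap, and d6PGCLC replicate 1 was the highest. The means of 130.1 ± 4.53 and 109.8 ± 5.001 CPM (SD, n = 4 each) gave a 1.18-fold difference with a 95% interval of 1.04 to 1.35 (log2 fold change 0.24, SE 0.09, edgeR adjusted p = 0.0392; exact permutation p = 0.0286). The call was close to the threshold. It held when d6PGCLC replicate 2 was left out (edgeR adjusted p = 0.0479) and was lost when any other single library was left out, with log2 fold changes of 0.22 to 0.27 and adjusted p-values of 0.0576 to 0.156. Without E12.5 PGC replicates 2 and 4 it was 0.28 on the log2 scale (edgeR adjusted p = 0.103).

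L3mbtl2 (Entrez 214669, chr15:81663889-81688315), the MBT repeat subunit, did not pass. It stood at 196, 197, 225 and 223 CPM in d6PGCLCs and at 195, 191, 191 and 199 CPM in E12.5 PGCs. Replicates 1 and 2 of the d6PGCLCs lay within the E12.5 PGC range and replicates 3 and 4 above it. The log2 fold change was 0.12 (SE 0.09, 95% interval -0.06 to 0.30, edgeR adjusted p = 0.372; exact permutation p = 0.114). Its exons overlap those of Chadl on the opposite strand, and whether counting used strand was not stated. Chadl had 41 to 80 counts per library, against 1536 to 2717 for L3mbtl2.

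Mga (Entrez 29808, chr2:119872503-119970129), the scaffold and E-box binding subunit, was the most variable member. Its level was 53.4, 28.2, 32.4 and 35.4 CPM in d6PGCLCs and 60.9, 40.9, 54.0 and 44.4 CPM in E12.5 PGCs. Replicates 2, 3 and 4 of the d6PGCLCs lay below the E12.5 PGC pools, whereas replicate 1 lay among them. The means were 37.3 ± 11.1 and 50.1 ± 9.09 CPM (SD, n = 4 each), with a log2 fold change of -0.43 (SE 0.17, 95% interval -0.77 to -0.08, edgeR adjusted p = 0.0574; exact permutation p = 0.143). Without d6PGCLC replicate 1 the value was -0.64 (edgeR adjusted p = 0.000312), without E12.5 PGC replicate 2 it was -0.51 (adjusted p = 0.0343), and without E12.5 PGC replicates 2 and 4 it was -0.63 (adjusted p = 0.0114). Without any other single library Mga did not pass (-0.48 to -0.32, edgeR adjusted p of 0.0532 to 0.193). With all libraries and the replicate number as a block in the fit, Mga passed (-0.45, edgeR adjusted p = 0.00147). Mga therefore lay on either side of the threshold according to which libraries entered, the scaling and the block.

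E2f6 (Entrez 50496, chr12:16810909-16826752), the repressor E2F of the complex, had the fewest reads of the 6. It measured 13.9, 13.4, 13.4 and 14.8 CPM in d6PGCLCs and 16.8, 12.52, 12.7 and 16.9 CPM in E12.5 PGCs. The d6PGCLC values fell inside the range of the E12.5 PGC values, where replicates 1 and 4 were high and replicates 2 and 3 low. The log2 fold change was -0.09 (SE 0.16, 95% interval -0.43 to 0.25, edgeR adjusted p = 0.884; exact permutation p = 0.486). It ranged from -0.15 to -0.01 when a single library was left out, and did not pass in any of these fits.

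Tfdp1 (Entrez 21781, chr8:13338725-13378448), the DP partner of E2F factors, was lower in d6PGCLCs. It measured 282, 306, 262 and 255.4 CPM in d6PGCLCs and 351, 336, 363 and 368 CPM in E12.5 PGCs. No d6PGCLC library reached the lowest E12.5 PGC library, which was replicate 2. The means of 276 ± 22.6 and 354 ± 14.0 CPM (SD, n = 4 each) corresponded to a 1.28-fold higher level in E12.5 PGCs (log2 fold change -0.36, SE 0.09, 95% interval -0.54 to -0.18, edgeR adjusted p = 0.00211; exact permutation p = 0.0286). Tfdp1 passed under each of the 19 alternatives, with log2 fold changes of -0.44 to -0.32. In pooled cells, fewer cells with a transcript and less of it per cell cannot be told apart, for this and the other genes.

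**Figure D2:**
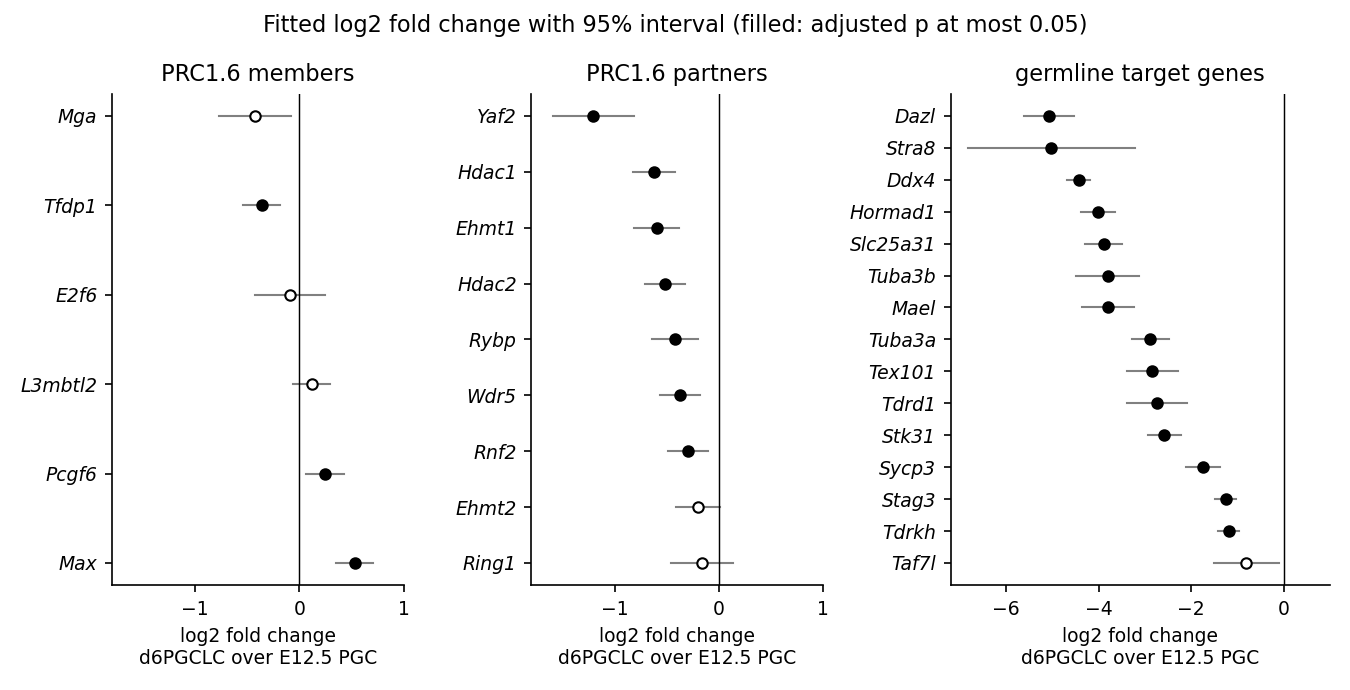
Fitted log2 fold change of d6PGCLC over E12.5 PGC (x axis) with its 95% interval for the members, the listed partners and the listed germline target genes (y axis); filled points passed at an adjusted p of at most 0.05. The members lie between -0.43 and 0.53, the partners between -1.20 and -0.16, and the target genes between -5.07 and -0.81 on an axis of their own.

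Levels of different genes were set side by side per exonic length, as reads per kilobase of exon scaled as the CPM are (RPKM). In all 4 E12.5 PGC libraries the order was Tfdp1, Max, L3mbtl2, Pcgf6, Mga and E2f6, from 119 ± 4.69 RPKM for Tfdp1 and 68.8 ± 1.77 for Max, through 47.2 ± 0.868 for L3mbtl2 and 44.0 ± 2.00 for Pcgf6, to 17.3 ± 3.15 for Mga and 12.6 ± 2.09 for E2f6 (mean ± SD, n = 4). The ranges of Mga and E2f6 overlapped, and those of L3mbtl2 and Pcgf6 nearly met. In d6PGCLCs the members formed 3 pairs whose ranges did not overlap between pairs. Max and Tfdp1 were at 99.5 ± 4.81 and 92.3 ± 7.55 RPKM, Pcgf6 and L3mbtl2 at 52.1 ± 1.81 and 51.2 ± 3.90 RPKM, and Mga and E2f6 at 12.9 ± 3.83 and 11.9 ± 0.562 RPKM (mean ± SD, n = 4). Within each pair the order changed from library to library, and neighbours did not differ beyond their spread.

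**Figure D3:**
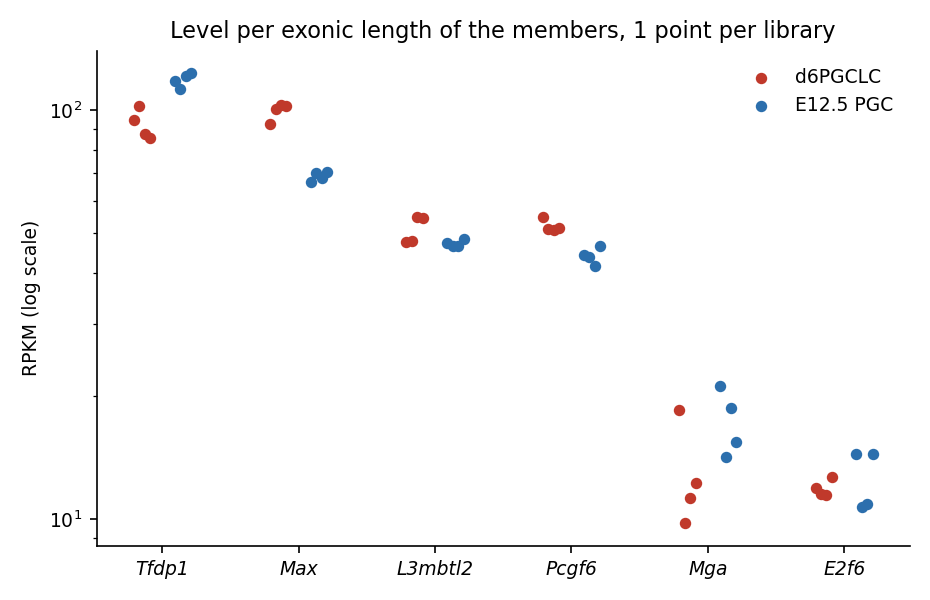
RPKM (y axis, log scale) of the 6 members (x axis) with 1 point per library, d6PGCLC in red and E12.5 PGC in blue. Tfdp1 and Max are close together in d6PGCLCs and apart in E12.5 PGCs, and Mga and E2f6 are the 2 lowest in both groups.

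The balance between partners of the complex was described by ratios chosen after the values were seen, with no test. The ratio of Max to Tfdp1 (RPKM) was 0.980 to 1.20 in d6PGCLCs and 0.563 to 0.624 in E12.5 PGCs. The ratio of Max to Mga, the E-box binding pair, was 5.003 to 10.3 in d6PGCLCs and 3.16 to 4.94 in E12.5 PGCs, and its lowest d6PGCLC value came from replicate 1. Max over Pcgf6 was 1.69 to 2.02 against 1.51 to 1.64, and Tfdp1 over E2f6 overlapped between the groups at 6.75 to 8.89 and 8.15 to 11.1. L3mbtl2 over Pcgf6 also overlapped, at 0.870 to 1.08 and 1.04 to 1.12. The ratios without overlap all hold Max, which was itself higher in d6PGCLCs. These ratios rest on the single transcript model that was counted for each gene. The counted Mga model was 2887 bases long. Protein-coding Mga transcripts in GENCODE M21 run from 6995 to 13931 bases, and no GENCODE transcript of any member had the counted length. Its level per length is that of this model alone, and Mga exons outside it did not enter.

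For each member, the 2 genes whose log2(CPM + 0.5) over the 8 libraries correlated best with it were taken from the 8192 genes with a mean of at least 10 CPM. Max was most like Ctsz, a lysosomal protease gene (Pearson r = 0.997), and Pcgf6 was most like Mtus1 (r = 0.997) and Rbpms2 (r = 0.990). Tfdp1 was most like Uqcrc1, a subunit of respiratory complex III (r = 0.996), and the cobalamin uptake receptor Cd320 (r = 0.994). Mga was most like the RNA-binding protein genes Zfr (r = 0.985) and Hnrnpul1 (r = 0.984), and L3mbtl2 was most like Cdc42ep1 (r = 0.985) and Nufip2 (r = 0.984). E2f6 had the weakest likeness, with Gsk3b (r = 0.834) and Erlin1 (r = 0.834). The libraries share their group and depth, so these are descriptions only.

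The shared enzymes and adaptors of the complex were lower in d6PGCLCs more often than not. Of 10 listed partners 9 were in the table (Cbx3 was not analysed here), and 7 were lower and 0 higher, beside 15.4% of all genes and 25.8% of genes averaging at least 100 counts that were lower. The median log2 fold change over the 9 was -0.42, against 0.00 over all genes. Many of these proteins also serve other complexes.

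Of the RING ligases, Rnf2 was 175 to 188 CPM in d6PGCLCs against 192 to 247 CPM in E12.5 PGCs (log2 fold change -0.30, SE 0.09, edgeR adjusted p = 0.0157). That call was lost without E12.5 PGC replicate 1 (-0.25, adjusted p = 0.0638) or without replicate 3 (-0.28, adjusted p = 0.0633). Ring1 did not pass, at 19.6 to 27.6 and 23.8 to 29.7 CPM (log2 fold change -0.16, adjusted p = 0.517). Its value ranged from -0.22 to -0.07 when a single library was left out and was -0.28 with the length-dependent offset, again without passing. The 2 adaptors that link the RING ligases to DNA-binding subunits were both lower. Rybp measured 43.6 to 50.8 against 58.2 to 64.6 CPM (-0.42, SE 0.11, adjusted p = 0.00333), and Yaf2 measured 7.05 to 10.2 against 14.3 to 23.0 CPM (-1.20, SE 0.19, adjusted p = 2.31e-05). Yaf2 was the only one of the partners beyond a 2-fold difference.

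Wdr5, a WD40 protein shared with the complexes that methylate histone H3 on lysine 4, was at 293 to 365 CPM in d6PGCLCs against 373 to 448 CPM in E12.5 PGCs (log2 fold change -0.37, SE 0.09, edgeR adjusted p = 0.00337). The histone deacetylase genes Hdac1 and Hdac2 were lower at log2 fold changes of -0.62 (SE 0.10, adjusted p = 3.02e-05) and -0.51 (SE 0.09, adjusted p = 0.00013). Of the paired H3 lysine 9 methyltransferases, Ehmt1 (GLP) was lower at 78.3 to 95.9 against 113 to 147 CPM (-0.59, SE 0.10, adjusted p = 0.000101). Ehmt2 (G9a) overlapped between the groups at 266 to 363 and 323 to 383 CPM (-0.20, SE 0.10, adjusted p = 0.153), and passed without d6PGCLC replicate 1 (-0.30, adjusted p = 0.0103).

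Some paralogs that take the place of the members in other complexes were higher and some lower. Of 5 other PCGF genes, 2 were higher and 1 lower. All 5 averaged at least 100 counts, a level at which 54.1% of genes passed over the whole table. Only 1 of the 5, lower in d6PGCLCs, passed without d6PGCLC replicate 3 or 4, without E12.5 PGC replicate 3 or 4, or with library size only, DESeq2 size factors, the upper quartile or the length-dependent offset. Bmi1 (PCGF4), a subunit of canonical PRC1, was at 12.3 ± 2.17 CPM in d6PGCLCs against 95.9 ± 11.4 CPM in the PGC pools (mean ± SD, n = 4; log2 fold change -2.97, SE 0.14, edgeR adjusted p = 8.58e-13), with no overlap. Pcgf1, of the BCOR complex, was 12.2 ± 0.966 against 8.67 ± 2.00 CPM (0.49, SE 0.19, adjusted p = 0.0493). The Pcgf1 call was lost in 10 of 19 alternatives and without any single library other than d6PGCLC replicate 1 and E12.5 PGC replicate 2 (adjusted p up to 0.211). Pcgf2, named after its values were seen, was the other higher gene (0.24, adjusted p = 0.0452) and its groups overlapped.

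Of 8 listed MBT family genes 7 were in the table (Mbtd1 was not analysed here), with 2 higher and 2 lower. The 4 of 7 that passed stand beside 31.5% of all genes and 54.1% of those averaging at least 100 counts, a mean that 4 of the 7 reached. Scml2, a germline Polycomb protein, was 6.90 ± 2.02 CPM in d6PGCLCs against 65.4 ± 19.0 CPM in the PGC pools (mean ± SD, n = 4; log2 fold change -3.25, SE 0.20, edgeR adjusted p = 7.14e-11). Sfmbt1 was lower (-0.71, SE 0.13) and Sfmbt2 higher (1.45, SE 0.21), both without overlap. The other higher gene, L3mbtl3, had a mean of 12.9 counts per library.

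In the MAX network, the bHLH-zipper proteins that share MAX or MLX as partner, 3 of 11 genes were higher and 4 lower. Over the whole table, 16.1% of genes were higher and 15.4% lower, and among those averaging at least 100 counts, as 8 of the 11 did, 28.3% and 25.8%. Mnt, a repressor that dimerises with MAX, was 150 ± 20.0 against 96.9 ± 4.58 CPM (log2 fold change 0.63, SE 0.10), and Mlxipl, the glucose-responsive factor ChREBP, was 31.7 ± 8.65 against 12.9 ± 3.82 CPM (1.31, SE 0.21). Mlxip (MondoA) was lower (-0.69, SE 0.10), as was Mycl (-0.40, SE 0.11). Mycn at 255.2 ± 12.8 against 273 ± 10.6 CPM and Myc at 3.47 ± 0.344 against 3.81 ± 1.06 CPM did not pass (edgeR adjusted p = 0.47 and 0.918).

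Among the E2F and DP family with the pocket proteins, 7 of 10 genes in the table were higher and 1 lower (E2f4 was not analysed here). Of the 10, 9 averaged at least 100 counts, a level at which 28.3% of genes were higher and 25.8% lower, against 16.1% and 15.4% of all genes. Rbl1 (p107), a pocket protein that binds repressor E2Fs, was 39.3 ± 4.93 against 22.9 ± 2.44 CPM (SD, n = 4 each; log2 fold change 0.78, SE 0.14, edgeR adjusted p = 9.19e-05). E2f2, an activator, was higher by 0.64 (SE 0.10), the atypical repressor E2f8 by 0.49 (SE 0.10) and the pocket-dependent E2f5 by 0.43 (SE 0.10) on the log2 scale. Without E12.5 PGC replicate 3, 5 genes were higher and 0 lower. Tfdp2, the other DP gene, was singled out after its values were seen. It was higher in d6PGCLCs at 190.1 ± 13.8 against 149 ± 16.5 CPM (0.35, SE 0.10, adjusted p = 0.00728), while Tfdp1 was lower.

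Most of the listed genes that the complex is known to bind and silence in pluripotent cells were far lower in d6PGCLCs. Of 16 listed germline target genes 15 were in the table (Smc1b was not analysed here), and 14 were lower, each by more than 2-fold, beside 6.75% of all genes and 4.49% of those averaging at least 100 counts, a mean that 11 of the 15 reached. The median log2 fold change of the 15 genes was -2.89. Taf7l did not pass (-0.81, SE 0.34, edgeR adjusted p = 0.0768). The low level of germline genes in these d6PGCLCs was known when the list was made, so the count is a description and no independent evidence.

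Dazl, an RNA-binding protein needed for PGCs to enter gametogenesis, had 17.8 to 63.9 CPM in d6PGCLCs against 1018 to 1580 CPM in E12.5 PGCs (log2 fold change -5.07, SE 0.26, edgeR adjusted p = 2.45e-11). Ddx4, the germ granule helicase, had 27.2 to 42.8 and 626 to 836 CPM (-4.42, SE 0.12, adjusted p = 1.29e-15). Hormad1, of the meiotic chromosome axis, had 3.48 to 7.02 and 66.0 to 82.2 CPM (-4.01, SE 0.18, adjusted p = 4.69e-13), and Slc25a31, a germ cell ADP/ATP carrier, had 3.73 to 9.87 and 78.3 to 94.4 CPM (-3.89, SE 0.20, adjusted p = 3.09e-12). Within the d6PGCLCs, Dazl was at 50.5 and 63.9 CPM in replicates 1 and 2 and at 17.8 and 18.6 CPM in replicates 3 and 4. Stag3 and Tdrkh had the smallest differences that passed, at -1.25 and -1.19. Tuba3a and Tuba3b are near-identical copies, and reads that match both would be missing from counts of uniquely mapped reads, so their levels may be understated.

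**Figure D4:**
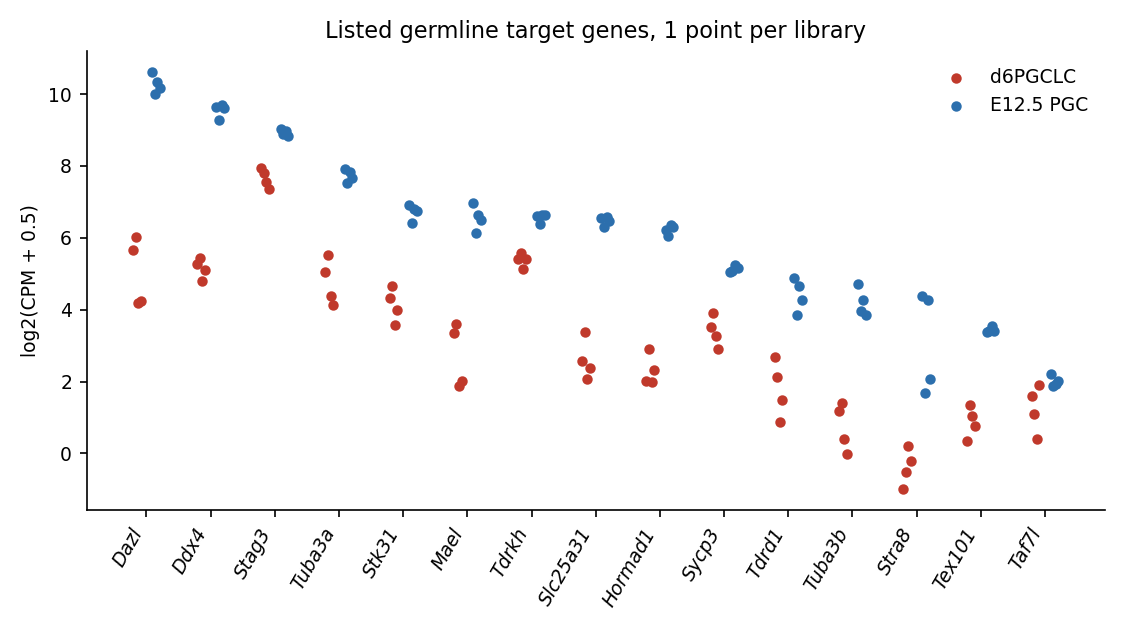
log2(CPM + 0.5) (y axis) of the 15 listed germline target genes in the table (x axis), 1 point per library, d6PGCLC in red and E12.5 PGC in blue. Only for Taf7l do the groups overlap.

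The promoters of these genes were searched for the letters that the DNA-binding members recognise. Promoters were those of RefSeq (GRCm38.p6), 300 bases from 250 before to 50 after the annotated start, and all 16 target genes and all 6 members had one. The E2F-type motif was TCCCGC or its reverse complement GCGGGA, the E-box CACGTG, which reads the same on both strands, and the T-box motif AGGTGTGA or TCACACCT. No pair of these motifs shared bases in the promoters shown. An E-box was found in 9 of 16 target genes (56.2%), against 8.09% of 27025 genes with a promoter and 13.3% of those averaging at least 100 counts. An E2F-type motif was found in 9 of 16 (56.2%), against 22.05% and 42.9%, and both in 6 of 16 (37.5%), against 2.65% of all. The share with both among genes averaging at least 100 counts was not computed. With only the bases before the start, an E2F-type motif was in 7 of 16 (43.8%), against 18.8% and 36.9%. In that window an E-box was in 9 of 16, against 6.86% and 11.2%, and both were in 4 of 16 (25.0%), against 1.98% of all. The T-box motif was found in Sycp3 alone of the 16. The list holds genes known as targets, so these shares describe the list.

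Of the 9 target genes with an E-box before the start, the upstream bases of 4 are shown as examples, 3 of them with an E2F-type motif before the start as well. Dazl is shown because it had the largest difference of the listed genes and neither motif. Capitals mark E2F-type and E-box letters, and each sequence runs 5′ to 3′ up to the base before the annotated start on its strand. Mael lies at chr1:166238745-166238994 (minus strand), Hormad1 at chr3:95559427-95559676 (plus), Sycp3 at chr10:88459337-88459586 (plus), Slc25a31 at chr3:40708621-40708870 (plus) and Dazl at chr17:50293621-50293870 (minus).
Mael: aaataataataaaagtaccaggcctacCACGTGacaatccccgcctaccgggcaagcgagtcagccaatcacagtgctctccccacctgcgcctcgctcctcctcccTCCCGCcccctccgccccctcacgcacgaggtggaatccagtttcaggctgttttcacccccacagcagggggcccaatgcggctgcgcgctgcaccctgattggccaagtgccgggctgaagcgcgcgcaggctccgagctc
Hormad1: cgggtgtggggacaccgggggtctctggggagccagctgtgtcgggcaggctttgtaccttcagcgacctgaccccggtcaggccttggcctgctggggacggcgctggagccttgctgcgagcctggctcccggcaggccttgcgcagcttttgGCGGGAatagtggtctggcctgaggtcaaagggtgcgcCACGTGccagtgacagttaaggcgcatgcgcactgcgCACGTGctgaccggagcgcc
Sycp3: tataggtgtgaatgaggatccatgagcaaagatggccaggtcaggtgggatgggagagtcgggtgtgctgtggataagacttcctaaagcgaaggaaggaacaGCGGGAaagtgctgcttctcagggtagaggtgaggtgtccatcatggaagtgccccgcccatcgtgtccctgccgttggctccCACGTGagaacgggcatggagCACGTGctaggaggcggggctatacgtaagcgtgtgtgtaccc
Slc25a31: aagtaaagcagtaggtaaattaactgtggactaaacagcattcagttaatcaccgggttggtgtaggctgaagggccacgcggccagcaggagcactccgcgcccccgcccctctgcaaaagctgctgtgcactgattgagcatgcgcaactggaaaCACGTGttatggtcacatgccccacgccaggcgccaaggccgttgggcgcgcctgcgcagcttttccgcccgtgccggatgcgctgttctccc
Dazl: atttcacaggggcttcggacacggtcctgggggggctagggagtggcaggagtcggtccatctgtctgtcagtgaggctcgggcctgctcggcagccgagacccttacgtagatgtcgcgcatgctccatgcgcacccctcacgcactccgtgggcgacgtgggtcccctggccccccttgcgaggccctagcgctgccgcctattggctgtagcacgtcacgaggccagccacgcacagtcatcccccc

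In Hormad1 and Sycp3 the E2F-type letters stand upstream of a pair of E-boxes, at positions -95, -57 and -20 and at -147, -64 and -43 from the start (first base of each match). In Mael the order is the reverse, with the E-box at -223 and the E2F-type letters at -143. Mael, which acts in piRNA-mediated transposon silencing, was lower in d6PGCLCs at 3.15 to 11.7 against 70.1 to 126 CPM (log2 fold change -3.80, SE 0.27), and Sycp3, of the synaptonemal complex, at 7.03 to 14.5 against 32.3 to 37.6 CPM (-1.73, SE 0.18). Ddx4 also holds both before the start used here, which lies inside the annotated gene, and short windows around the matches are given (minus strand, chr13:112652431-112652456 and chr13:112652324-112652349).
Ddx4 E2F-type: cgtccatgggGCGGGAagtcgcgcgc
Ddx4 E-box: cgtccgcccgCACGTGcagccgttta

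**Figure D5:**
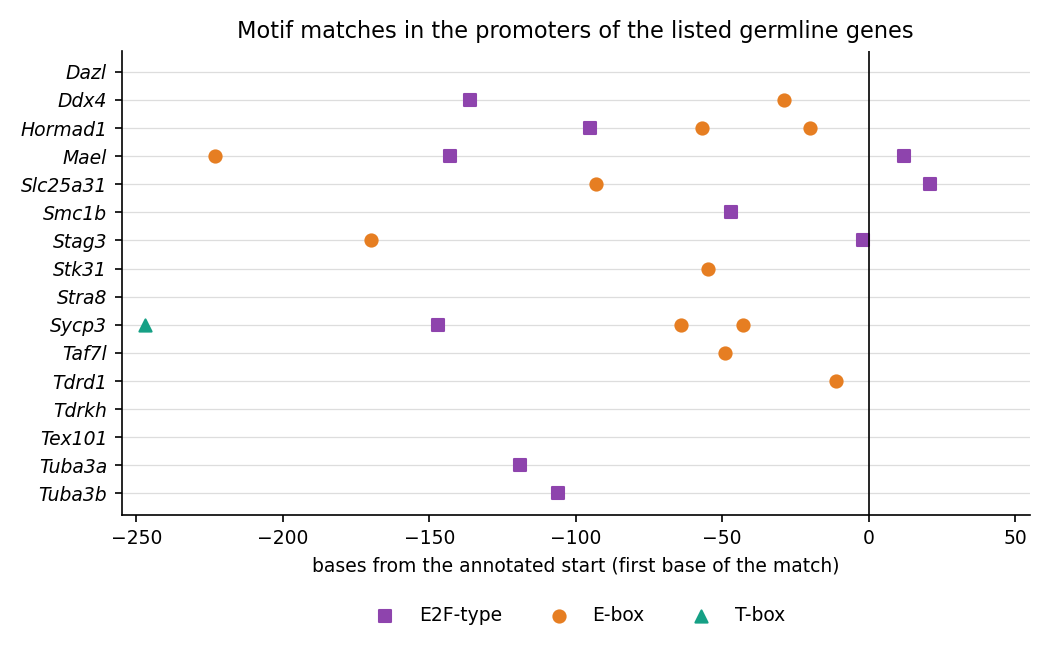
Positions of E2F-type, E-box and T-box letters (markers) in the promoters of the 16 listed germline target genes (y axis), as bases from the annotated start (x axis). Dazl, Stra8, Tdrkh and Tex101 hold none of the 3, and the 6 genes with both an E2F-type motif and an E-box are Ddx4, Hormad1, Mael, Slc25a31, Stag3 and Sycp3.

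Among the members' own promoters, E2f6 and Tfdp1 held E2F-type letters and Max and Tfdp1 an E-box. Pcgf6, Mga and L3mbtl2 held neither. Each motif was thus in 2 of 6 members (33.3%). E2F-type letters were in 22.05% of all genes with a promoter and 42.9% of those averaging at least 100 counts, as all 6 members did. For the E-box these shares were 8.09% and 13.3%. Tfdp1 is shown because it was the only member with both, upstream of the gene at chr8:13338501-13338724 (plus strand), and the matches of E2f6 (plus strand, chr12:16810902-16810927) and Max (minus strand, chr12:76962236-76962261, across the start of the promoter entry used) are given in short windows, since both lie inside the annotated genes. A match is a description of the letters and no measure of binding.
Tfdp1: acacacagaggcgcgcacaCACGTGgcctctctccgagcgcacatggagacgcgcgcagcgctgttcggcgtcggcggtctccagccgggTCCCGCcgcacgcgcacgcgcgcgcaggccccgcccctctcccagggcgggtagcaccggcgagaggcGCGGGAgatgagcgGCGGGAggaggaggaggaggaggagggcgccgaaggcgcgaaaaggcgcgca
E2f6 E2F-type: accggtgtgcGCGGGAgatctaacgg
Max E-box: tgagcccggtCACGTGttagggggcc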

How the data were processed

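RNA of 8 sorted cell pools was sequenced as stranded poly-A libraries. Per the labels and the study's methods, the authors aligned reads with STAR to the mouse genome (GRCm38, mm10), chose 1 UCSC transcript model per gene at random, dropped genes with overlapping promoters at random and deposited raw counts of uniquely mapped reads on its exons with that length, for 21950 genes (4940 at 0 throughout). Symbols, coordinates and promoters came from RefSeq GRCm38.p6, which matched 21907 genes by Entrez number. All 21950 genes were fitted with edgeR 4.0.16 in R 4.3.3 (TMM scaling, quasi-likelihood test, cell type as the only term, no filter, Benjamini-Hochberg adjustment, threshold 0.05). The fit was tested on simulated data, and the outcome is not reported here. CPM and RPKM used the same scaling. No 2 replicates agreed within sampling noise. The members and gene lists were chosen with earlier results of these data known.

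Named were all members and partners, up to 4 genes per other list (adjusted p of at most 0.05, mean of at least 100 counts, no overlap, largest differences) and the 2 genes most like each member, of which 1 is not reported here. The 19 alternatives covered the likelihood ratio test, DESeq2 1.42.0, other scalings, filters on low counts, a prior count of 2, a length-dependent offset, a replicate block and left-out libraries. Fold changes of genes near 0 depend on the prior count. Counts give no absolute RNA amount per cell. The 8 listed proliferation genes summed to 4342 to 5056 CPM in d6PGCLCs and 4801 to 5494 CPM in E12.5 PGCs. By the main edgeR test Mki67, Mcm2 and Mcm5 were lower in d6PGCLCs, Ccne1 was higher and the other 4 did not pass. Over the whole table, 54.1% of genes averaging at least 100 counts passed, a mean that all 8 reached.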

Additional observations from a re-analysis of the deposited data

Results flagged for a closer look

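In 5 of 64 sets of 4 libraries, 1 library lay far from the other 3 (its gap to the nearest, over the group's range, was above Dixon's 95% critical value), where chance gives about 3.2. Pcgf6 was at 137 CPM in d6PGCLC replicate 1 and 127 to 129 CPM in the other d6PGCLC pools. The partner gene Yaf2 was at 10.2 CPM in d6PGCLC replicate 2 and 7.05 to 7.52 CPM in the others, and Wdr5 was at 373 CPM in E12.5 PGC replicate 2 and 438 to 448 CPM in the others. Rbl1 was at 31.9 CPM in d6PGCLC replicate 1 against 41.6 to 41.9 CPM, and E2f8 at 99.7 CPM in E12.5 PGC replicate 1 against 88.3 to 90.2 CPM. The 2 libraries named for Pcgf6, Rbl1 and Wdr5 were also those in which Mga was highest among d6PGCLCs (53.4 CPM) and lowest among E12.5 PGCs (40.9 CPM).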

How the results depend on the processing

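Max and Tfdp1 passed in all 19 alternatives and E2f6 and L3mbtl2 in none, and all 4 kept their sign. The Pcgf6 log2 fold change of 0.24 no longer passed with library size only (0.21), the upper quartile (0.21), the length-dependent offset (0.13) or without E12.5 PGC replicates 2 and 4 (0.28), and ranged from 0.22 to 0.27 when 1 library was left out. Mga, at -0.43, passed with library size only (-0.46), the upper quartile (-0.46), the length-dependent offset (-0.51) or without those 2 pools (-0.63), and ranged from -0.64 to -0.32 when 1 library was left out. The count of other PCGF genes that passed went from 3 to 1 with library size only, DESeq2 size factors, the upper quartile or the length-dependent offset, and was 1 to 4 when 1 library was left out. That of the E2F and DP family was 5 to 8, with 5 without E12.5 PGC replicate 3. The cause was not tested.

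Libraries of the same replicate number deviated together with r of -0.04 to 0.30, and those of different numbers with r of -0.20 to 0.14. The highest value, 0.30, was that of the replicates numbered 1. These few values do not settle whether the numbers pair the pools, and the main fit left the number out. With the number as a block, 7270 genes passed in place of 6919, and Mga (-0.45, edgeR adjusted p = 0.00147) and Ehmt2 (-0.21, adjusted p = 0.0351) passed. Depth was lowest for E2f6 among the members, at 109 to 187 counts per library.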

Other observations

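Some relatives of the members were scarce in 1 or both groups and stand outside the rule for named genes. Mxd4, a repressor that dimerises with MAX, was at 0.668 ± 0.363 CPM in d6PGCLCs against 10.5 ± 3.60 CPM in the PGC pools (mean ± SD, n = 4; edgeR adjusted p = 1.11e-08). Mxd1, of the same family, was at 2.47 ± 0.538 and 7.28 ± 3.16 CPM (adjusted p = 0.000282). L3mbtl3, an MBT paralog of L3mbtl2, was at 2.27 ± 0.898 and 0.522 ± 0.275 CPM (adjusted p = 0.000628), L3mbtl1 was at 0.263 ± 0.0287 and 0.388 ± 0.184 CPM and did not pass, and L3mbtl4 had 0 counts in all 8 libraries. Stra8, the retinoic acid-induced gene that opens meiosis and a listed germline target, was at 0, 0.204, 0.664 and 0.364 CPM in d6PGCLC replicates 1 to 4 and at 20.5, 2.74, 18.9 and 3.70 CPM in E12.5 PGC replicates 1 to 4. The E12.5 PGC pools thus fell into a high pair, replicates 1 and 3, and a low pair, replicates 2 and 4.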
